A study of Mus musculus with 12 samples.

Results

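The comparison sets 4 arrays of neural tube pieces numbered 5 and 6 against 4 arrays of pieces numbered 3 and 4, which are 8 of the 12 arrays of the series. The members were chosen by the part number in each array's title. All tissue came from CD1 mice, an outbred stock, at embryonic day 9.5, and the labels give no genetic change and no agent for any group other than 1 min of pancreatin at 2 mg per ml, an enzyme mixture used to loosen tissue layers before dissection. Each of the 6 pieces of posterior neural tube was measured once in each of 2 embryos, the replicate number was used as the embryo, and each side of the comparison therefore holds 2 neighbouring pieces of the same 2 animals. The labels do not say which number lies nearest the tail, so values are given by part number. Each value is a linear intensity of an Affymetrix probe set, called the signal, scaled so that the trimmed mean of every array is 100. Whole pieces were measured, so fewer cells of a type and less RNA per cell cannot be told apart.

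At this age the posterior end of the embryo still adds new spinal cord. Progenitors at the tail end carry caudal transcription factors of the Cdx family and are exposed to FGF and Wnt ligands, and retinoic acid made by the neighbouring somites opposes FGF as cells leave this zone. Once they have left it, cells of the closing tube express neural progenitor genes, and opposing Hedgehog and BMP signals divide them into ventral, intermediate and dorsal domains, from which Notch signalling releases a few cells at a time as neurons. Hox genes of increasing group number mark increasingly caudal levels.

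Parts 5 and 6 had higher signals of patterned neural progenitor genes (Hes5, Nkx6-1, Olig2, Pax6, Zic1), of the retinoic acid receptor Rarb and of the Hox cofactors Meis1 and Meis2. They had lower signals of the caudal genes Fgf17, Cdx2 and Evx1, of the FGF-responsive genes Dusp6 and Spry1, and of all 6 tested Hox genes of groups 10 to 13. In these genes the difference had the same sign in both embryos. However, none of the 12089 genes tested passed an adjusted p of 0.05 in the planned comparison, a limma fit of the 8 arrays with the embryo as a block (0% called). The smallest adjusted p was 0.0507 and was shared by 19 genes, 11 of them higher and 8 lower in parts 5 and 6. At an unadjusted p of 0.05 there were 1746 genes (14.4%), 785 higher (6.49%) and 961 lower (7.95%).

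The number of genes called was sensitive to the fit. Without the embryo block 65 genes passed (0.538%). In a limma fit of all 12 arrays with 1 coefficient per piece and the embryo as a block, called the piece fit here, 313 passed (2.59%), 148 higher (1.22% of genes tested) and 165 lower (1.36%). In the planned fit a difference between part 3 and part 4, or between part 5 and part 6, counts as spread, and in the piece fit it does not. The piece fit in turn takes disagreement between the embryos in parts 1 and 2, outside the comparison, into its spread. A gene uneven there can fail in the piece fit whatever its values in parts 3 to 6. With the prior variance following the mean signal 374 genes passed. Leaving out 1 array at a time gave 0 to 20 genes, leaving out both arrays of part 4 gave 101 and of part 5 138, and leaving out both of part 3 or both of part 6 gave 0. In the following text differences are log2 values of parts 5 and 6 minus parts 3 and 4 with their standard errors from the planned fit, "adjusted p" without a further name is from that fit, and a gene is said to have risen or fallen only where the named piece fit called it. This departs from the plan, which was to count list members in the planned fit. There 0 members of every gene list were called, and the piece fit is the more permissive of the 2.

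**Figure D1:**
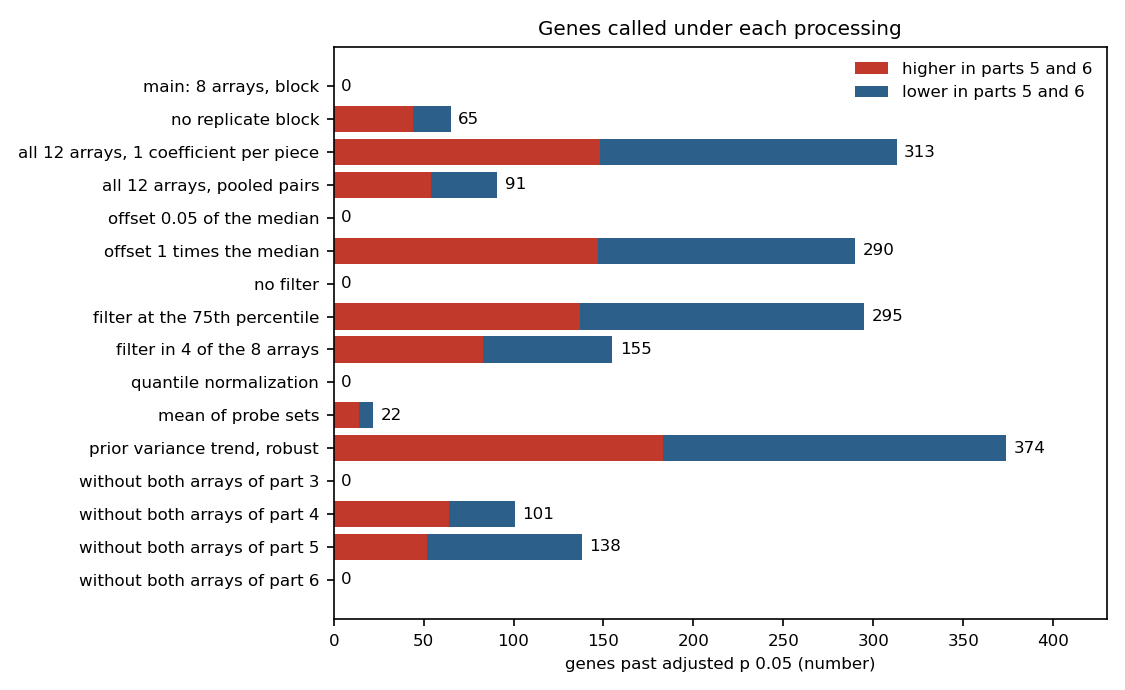
Number of genes past an adjusted p of 0.05 (x axis) for parts 5 and 6 against parts 3 and 4 under the planned fit (top bar) and each other processing (y axis), with genes higher in parts 5 and 6 in red and lower in blue. The planned fit called 0 genes and the other processings shown from 0 to 374.

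A second criterion that needs no model was whether the 4 signals of one side lay entirely above the 4 of the other. This held for 976 genes (8.07%), 480 higher in parts 5 and 6 (3.97%) and 496 lower (4.1%). Of the 313 genes called in the piece fit, 238 met it. In the gene lists below, counts called in the piece fit are to be read against 2.59% of all genes. Counts without overlap are to be read against 8.07%. A gene was tested only if its signal lay above the array median in at least 2 of the 12 arrays. Nkx6-1, Olig2, Zic1 and Prdm8 met this only in parts 5 and 6, so they could hardly be called lower. The counts of the lists that hold them are partly fixed by this filter. The differences seen in the 2 embryos correlated across genes with r = 0.523, although genes are not independent replicates. Of the 167 genes more than 1 log2 higher in parts 5 and 6 of replicate 1, 141 were also higher in replicate 2, with a median of 1.11. Of the 162 more than 1 log2 lower, 141 were lower in replicate 2, with a median of -0.84. The median difference over all genes was -0.01. Array medians lay between 16.7 and 19.1, and a first principal component with 38.4% of the variance increased with the part number in both embryos, while the second, with 15.5%, separated the embryos.

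Hes5, a transcriptional repressor switched on by Notch signalling in neural progenitors, had one of the largest differences of the genes tested. Its signals in replicates 1 and 2, the order used throughout, were 36.2 and 34.4 in part 3, 80.5 and 80.2 in part 4, 569 and 696 in part 5, and 1619 and 1415 in part 6. The sides did not overlap, the lowest array of parts 5 and 6 lying at 569 and the highest of parts 3 and 4 at 80.5. The mean signal was 57.8 ± 26 in parts 3 and 4 and 1075 ± 520.1 in parts 5 and 6 (SD, n = 4 arrays). The log2 difference was 4.08 ± 0.43, with an adjusted p of 0.0507 and of 5.68e-05 in the piece fit. It was 4.04 in replicate 1 and 4.12 in replicate 2, and a second, dimmer probe set gave 1.70.

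The 250 bases before the Hes5 start site are shown because Notch acts on its targets through the DNA-binding protein RBPJ, whose core motif GTGGGAA (searched on both strands) occurs in this window 2 times. The window is chr4:154960673-154960922 on the plus strand of GRCm38.p6, from RefSeq, printed 5′ to 3′ with the matches in capitals.
Hes5: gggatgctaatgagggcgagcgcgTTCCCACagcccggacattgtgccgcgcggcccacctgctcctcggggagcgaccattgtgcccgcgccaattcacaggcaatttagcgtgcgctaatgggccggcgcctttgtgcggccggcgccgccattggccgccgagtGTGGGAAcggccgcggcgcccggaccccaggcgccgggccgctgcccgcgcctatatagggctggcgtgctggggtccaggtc
The matches lie 220 and 77 bases before the start site, counted from the match base nearest to it. Of 32851 promoter windows of this length, 1779 held the motif (5.42%), and counted by gene it was 1669 of 27025 (6.18%). Of the 20 tested Notch pathway genes 16 had a window, and 4 of these held it (Hes5, Hes7, Hey2 and Lfng). A match describes the letters of the window and does not show binding.

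Genes of the Notch pathway differed in both directions. Of the 20 tested, 2 rose and 1 fell in the piece fit (2.59% of all genes were called), and 5 were higher and 3 lower without overlap (8.07% of all genes). The median difference was -0.02, against -0.01 over all genes. Besides Hes5, the related repressor Hey2 rose by 1.09 (piece fit adjusted p = 0.0475). Hes7, the oscillating repressor of the segmentation clock and also a marker of presomitic mesoderm, fell: its signals were 142 and 103 in part 3, 41.8 and 52.8 in part 4, 16.1 and 22.1 in part 5, and 17.6 and 14.6 in part 6, a difference of -1.88 ± 0.36 (adjusted p = 0.0733, piece fit 0.00578). The sides did not overlap in either gene. Among ligands, Dll1 had a difference of 1.65 ± 0.35 and Dll3 one of -1.11 ± 0.19, and the arrays did not overlap in either, but neither passed in the piece fit (adjusted p = 0.411 and 0.397). Both were uneven between the embryos outside the comparison, which enters the spread of that fit. Dll1 was at 524 and 22.2 in part 2 and Dll3 at 960 and 255 in part 1. Jag1 was 195 to 209 in parts 3 and 4 and 248 to 327 in parts 5 and 6, a difference of 0.51 ± 0.11. The receptors Notch1, Notch2 and Notch3 had differences of 0.00, 0.31 and -0.13, Rbpj itself -0.02 and Hes1 -0.06, and in none of these were the arrays separate.

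Many general neural progenitor genes were higher in parts 5 and 6. Of 17 tested, 8 rose and 1 fell in the piece fit (2.59% of all genes were called). Without overlap 9 were higher and 1 lower (8.07% of all genes), and the median was 0.78. Pax6, a homeodomain protein of the progenitors of the middle of the tube, had signals of 27.1 and 30.6 in part 3, 79.1 and 68.9 in part 4, 191 and 208 in part 5, and 354 and 329 in part 6. Its signal increased from part to part in both embryos, and its difference was 2.38 ± 0.38 (adjusted p = 0.0585, piece fit 0.000379). Irx3 was 915 to 2016 in parts 3 and 4 and 2321 to 2778 in parts 5 and 6 (0.95 ± 0.28, piece fit adjusted p = 0.00545) and Irx5 was 83.9 to 225 in parts 3 and 4 and 223 to 750.2 in parts 5 and 6 (1.54 ± 0.34, piece fit 0.0055). The Irx5 arrays overlapped narrowly, since replicate 2 of part 4 and replicate 1 of part 5 were at nearly the same signal. Fgf15, a secreted factor of progenitors, was 23.3 to 57.6 in parts 3 and 4 and 105 to 186 in parts 5 and 6 (1.73 ± 0.29, piece fit adjusted p = 0.0157). Rfx4 rose by 1.33 and the RNA-binding protein gene Msi1 by 0.56 in the piece fit. The 3 Soxb1 genes, which mark neural progenitors in general and check the label of the tissue, were clearly above the array medians. Sox2 averaged 1485 ± 193 in parts 3 and 4 and 1497 ± 126 in parts 5 and 6 (SD, n = 4 arrays) and Sox3 379.7 ± 84.3 in parts 3 and 4 and 354 ± 31.3 in parts 5 and 6, with overlapping arrays in both, and Sox1 averaged 193 ± 34.6 in parts 3 and 4 and 342 ± 89.8 in parts 5 and 6. Vim, the intermediate filament of the neuroepithelium, was the one member that fell, with signals of 1441 to 2002 in parts 3 and 4 and 664 to 1358 in parts 5 and 6 (-0.77 ± 0.15, piece fit adjusted p = 0.018).

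**Figure D2:**
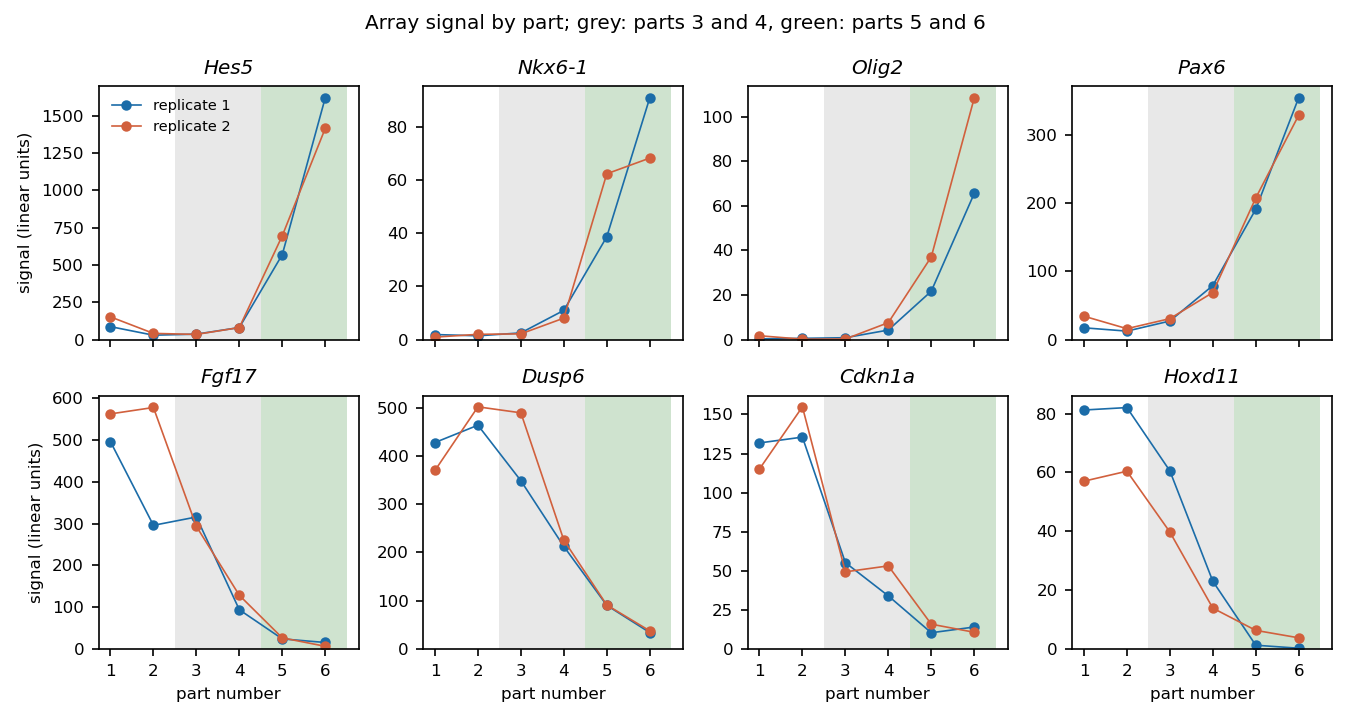
Signal in linear units (y axis, from 0) against part number (x axis) for 8 genes, with 1 line for each replicate and shading for parts 3 and 4 (grey) and parts 5 and 6 (green). In the upper row (Hes5, Nkx6-1, Olig2, Pax6) every array of parts 5 and 6 lies above every array of parts 3 and 4, and in the lower row (Fgf17, Dusp6, Cdkn1a, Hoxd11) every one lies below.

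Ventral progenitor genes were among the most separated. Of 10 tested, 4 rose and 0 fell in the piece fit (2.59% of all genes were called). Without overlap 7 were higher (8.07% of all genes did not overlap), and the median was 1.04. Nkx6-1 and Olig2 passed the filter only through their signals in parts 5 and 6. Nkx2-2, Nkx6-2, Foxj1, Lmx1b and Ferd3l were on the array but not kept. These counts are therefore partly fixed by the filter. Nkx6-1, which marks the ventral domains that give motor neurons and ventral interneurons, had signals of 2.5 and 2.14 in part 3, 11 and 8.07 in part 4, 38.7 and 62.4 in part 5, and 90.9 and 68.3 in part 6. It was low in part 3, and the sides did not overlap (difference 2.79 ± 0.35, adjusted p = 0.0507, piece fit 0.00017). Olig2, the transcription factor of motor neuron progenitors, followed the same order with signals of 0.817 and 0.237 in part 3, 4.26 and 7.59 in part 4, 21.7 and 37.1 in part 5, and 65.6 and 108 in part 6, a difference of 2.93 ± 0.47 (adjusted p = 0.0596, piece fit 0.000155). Because these part 3 signals lie below the offset of 4.43 added before the log2 step, the sizes depend on that offset. Olig1 was 0.744 to 18 in parts 3 and 4 and 25.3 to 47.3 in parts 5 and 6 (piece fit adjusted p = 0.0152), and Spon1, a secreted floor plate protein, was 28.9 to 64.3 in parts 3 and 4 and 106 to 216 in parts 5 and 6 (piece fit 0.00206). Foxa2, the floor plate factor, was 18.4 to 54.7 in parts 3 and 4 and 56.5 to 104 in parts 5 and 6, and its separate arrays did not pass (piece fit adjusted p = 0.318). Shh itself was 23.8 to 204 in parts 3 and 4 and 20.6 to 41.2 in parts 5 and 6, with overlapping arrays and a difference of -0.51 ± 0.59.

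Of 12 tested genes of the Hedgehog pathway 2 rose and 0 fell in the piece fit (2.59% of all genes were called), and the median was 0.23. Scube2, which helps release Hedgehog protein from the cells that make it, had signals of 43.6 and 42.9 in part 3, 118 and 139.5 in part 4, 217 and 273 in part 5, and 421 and 454 in part 6, higher with each part in both embryos. Its difference was 2.05 ± 0.44 (adjusted p = 0.0872, piece fit 0.000155). The co-receptor Boc rose by 0.72 (piece fit adjusted p = 0.0363). The co-receptor Gas1 was 458 to 695 in parts 3 and 4 and 697 to 1016 in parts 5 and 6 (piece fit 0.0724), while 2 dimmer Gas1 probe sets gave -0.19 and -0.16. The direct target Gli1 was 61.1 to 88.6 in parts 3 and 4 and 91.2 to 126 in parts 5 and 6 (difference 0.44 ± 0.15, piece fit adjusted p = 0.137), and the receptor and target Ptch1 differed by 0.09 ± 0.12.

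Genes of the intermediate domains were few: 4 of 6 tested rose in the piece fit and 3 were higher without overlap, with a median of 1.25, but Pax6, Irx3 and Irx5 belong to this list as well as to the general one. The list also holds Prdm8, which passed the filter only through parts 5 and 6, so these counts are partly fixed by the filter. Prdm8, a transcriptional repressor, had signals of 0.889 and 2.93 in part 3, 9.38 and 1.5 in part 4, 25.8 and 39.5 in part 5, and 162 and 185 in part 6. Most of its increase lay between parts 4 and 6, and its difference was 3.42 ± 0.65 (piece fit adjusted p = 0.00139). Dbx1, of the V0 interneuron domain, was 9.07 to 13.7 in parts 3 and 4 and 12.9 to 25.9 in parts 5 and 6 and did not pass (piece fit 0.0885).

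Dorsal progenitor and roof plate genes were mixed, with a median of 0.56. In the piece fit 5 of 14 tested were higher and 2 lower (2.59% of all genes were called). Zic1, a zinc finger factor of the dorsal tube, had signals of 1.6 and 1.8 in part 3, 6.39 and 7.29 in part 4, 49.1 and 18.2 in part 5, and 196 and 133 in part 6, and Zic5, of the same family, had signals of 838 and 1169 in part 3, 749.5 and 838 in part 4, 494 and 378 in part 5, and 324 and 574 in part 6. The 2 genes differed in opposite directions, by 3.19 ± 0.65 and -1.03 ± 0.19 (piece fit adjusted p = 0.000454 and 0.0441). Wnt1, a roof plate ligand, was 5.63 to 13.8 in parts 3 and 4 and 35.9 to 64.8 in parts 5 and 6 (1.7 ± 0.24, piece fit 0.00456), and the dorsal homeobox genes Msx3 and Msx1 rose by 0.95 and 0.85 in the piece fit, as did Pax7 by 1.00, while the secreted Wnt enhancer Rspo3 fell by 1.01. Among BMP pathway genes 4 of 22 rose and 0 fell, with a median of -0.01. Bmper, a secreted BMP regulator, was 8.54 to 20.7 in parts 3 and 4 and 35.8 to 142 in parts 5 and 6 (piece fit adjusted p = 0.0258), the antagonist Grem1 was 20.7 to 31.1 in parts 3 and 4 and 36.7 to 77 in parts 5 and 6 (piece fit 0.0152), and the target Id3 rose by 1.02. The ligands Bmp4 and Bmp7 had differences of -0.22 ± 0.41 and -0.10 ± 0.13.

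**Figure D3:**
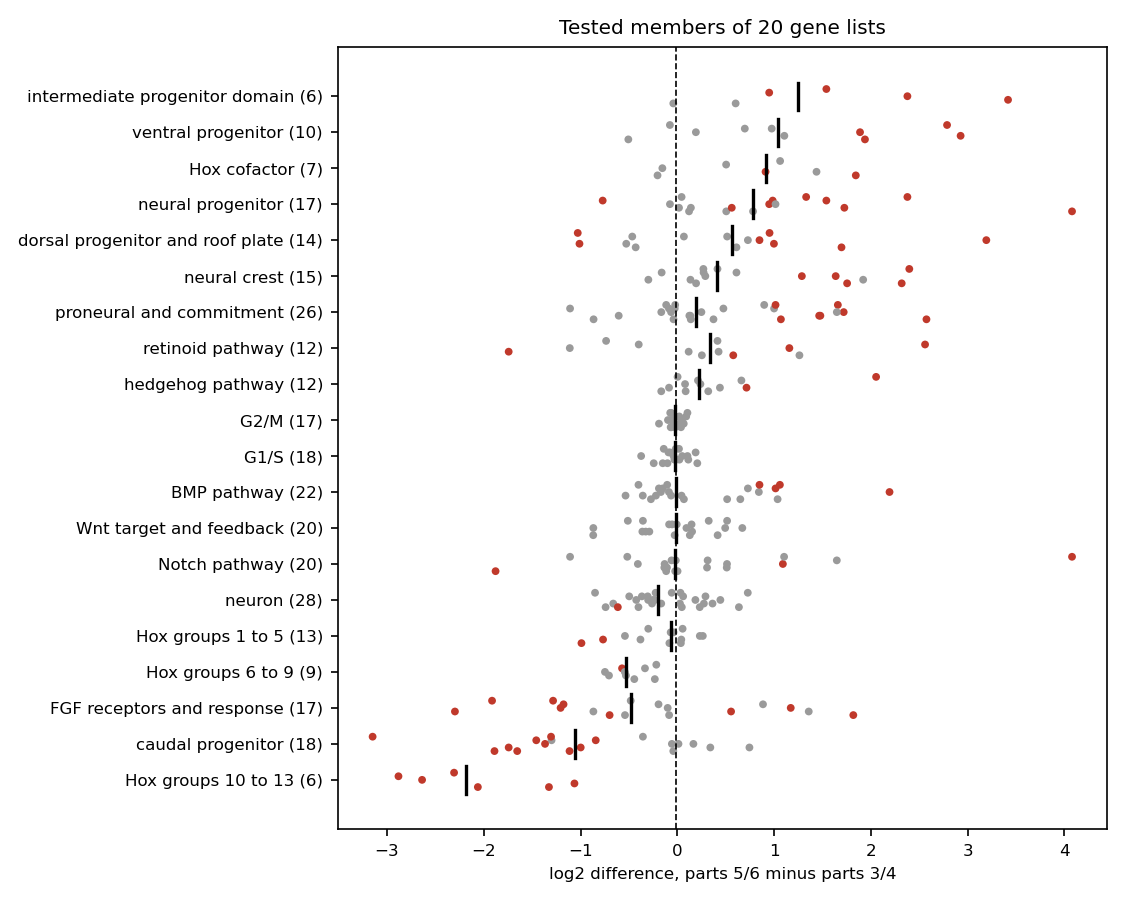
Log2 difference between parts 5 and 6 and parts 3 and 4 (x axis) for each tested gene of 20 gene lists (y axis, with the number tested in parentheses). Points in red passed an adjusted p of 0.05 in the fit of 12 arrays by piece and grey points did not, thick bars are list medians, and the dashed line is the median of all genes, -0.01. Medians run from -2.18 for Hox groups 10 to 13 to 1.25 for the intermediate progenitor domain.

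Some proneural genes, which commit progenitors to become neurons, were higher. Of 26 proneural and commitment genes, 7 rose and 0 fell in the piece fit, with a median of 0.19. Neurog2 had signals of 69.4 and 76 in part 3, 146 and 98 in part 4, 222 and 182 in part 5, and 354 and 349 in part 6, a difference of 1.47 ± 0.29 (adjusted p = 0.0789, piece fit 0.0043). Neurog1 averaged 11.3 ± 17 in parts 3 and 4 and 63.7 ± 27.4 in parts 5 and 6 (SD, n = 4 arrays). Neurod4 averaged 1.26 ± 1.44 in parts 3 and 4 and 15.1 ± 9.13 in parts 5 and 6, and both genes rose in the piece fit (adjusted p = 0.00495 and 0.00662), with overlapping arrays for Neurog1. Neurog3 rose by 1.72, also with overlap. Id4, a bHLH inhibitor found in progenitors, rose by 1.07 and Gadd45g, a stress and commitment gene, by 1.48, the latter with overlapping arrays. Of 28 neuron genes 0 rose and 1 fell in the piece fit (2.59% of all genes were called), and the median was -0.20. Members differed in both directions, 12 of the 28 lying above 0. At an unadjusted p of 0.05 in the planned fit 5 were higher and 7 lower, and 2 were higher and 4 lower without overlap. The one that fell was Cntn2, an axonal adhesion protein, at 22.4 to 32.9 in parts 3 and 4 and 13.6 to 20.1 in parts 5 and 6 (-0.61 ± 0.13, piece fit adjusted p = 0.0309). The growth cone protein gene Stmn2 was 22.8 to 39.7 in parts 3 and 4 and 12.8 to 18.5 in parts 5 and 6 (piece fit 0.0731), and the synaptic vesicle gene Syt11 was 744 to 840.02 in parts 3 and 4 and 474 to 631 in parts 5 and 6 (piece fit 0.066). In the other direction, Elavl3 and Elavl4 differed by 0.73 and 0.64 and did not pass either (piece fit adjusted p = 0.243 and 0.13).

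Of 12 tested genes that define spinal neuron classes 1 fell and 0 rose. It was Gad1, the enzyme that makes the transmitter GABA, with signals of 302 and 231 in part 3, 112 and 66.8 in part 4, 43.3 and 42.7 in part 5, and 14.1 and 13.5 in part 6. Its signal decreased with each part in both embryos, the difference being -2.41 ± 0.54 (adjusted p = 0.0948, piece fit 0.000433), but a second probe set with a mean signal of 3.26 gave 0.34. Mnx1, of motor neurons and of the caudal end, was 1.3 to 18 in parts 3 and 4 and 0.488 to 3.03 in parts 5 and 6 and overlapped.

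Several genes used as markers of neural crest were higher, with a median of 0.42. In the piece fit 5 of 15 tested were higher and 0 lower (2.59% of all genes were called). Ret, a receptor tyrosine kinase, had signals of 12.2 and 9.01 in part 3, 15.8 and 19.4 in part 4, 45.2 and 71.9 in part 5, and 135 and 153 in part 6, a difference of 2.4 ± 0.38 (adjusted p = 0.0562, piece fit 0.000433). Foxd3, which specifies crest, was 1.89 to 20.1 in parts 3 and 4 and 39.2 to 95.8 in parts 5 and 6 (2.32 ± 0.49, piece fit 0.00436), and Ednrb and Ets1 rose by 1.76 and 1.29. Dimmer probe sets gave smaller differences, 0.28 for Ret and 0.57 and 0.19 for Ednrb. Sox10, expressed in migrating crest, did not follow these genes: its mean was 26.4 ± 5.33 in parts 3 and 4 and 20.4 ± 2.29 in parts 5 and 6 (SD, n = 4 arrays). Sox9 was uneven between embryos, with differences of 2.34 in replicate 1 and 0.93 in replicate 2, and its arrays overlapped (4.46 to 23 in parts 3 and 4 and 12.3 to 124 in parts 5 and 6, piece fit adjusted p = 0.0265). Among radial glia and early glial genes 5 of 13 rose and 1 fell, with a median of 0.08. Ptprz1, a receptor phosphatase of progenitors, was 39.3 to 121 in parts 3 and 4 and 241 to 337 in parts 5 and 6 (1.75 ± 0.31, piece fit adjusted p = 0.0165), and the FGF receptor Fgfr3 was 44.7 to 77.5 in parts 3 and 4 and 104 to 172 in parts 5 and 6 (piece fit 0.0106). Metrn rose by 0.95, and Nfib, a gliogenic transcription factor, was the member that fell, by 0.56.

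Among 12 tested retinoid pathway genes 3 rose and 1 fell in the piece fit and the median was 0.33. Rarb, a retinoic acid receptor that is also a direct target of retinoic acid, had signals of 1.09 and 3.68 in part 3, 13.3 and 17.8 in part 4, 36.2 and 43 in part 5, and 103 and 99 in part 6. It was higher with each part in both embryos, and its difference was 2.56 ± 0.52 (adjusted p = 0.0831, piece fit 0.000131). Rarg, another receptor, was 183 to 217 in parts 3 and 4 and 95 to 161 in parts 5 and 6 and did not pass (piece fit 0.0776). Of the enzymes, Aldh1a2, which makes retinoic acid and is strong in somites, was 145 to 312 in parts 3 and 4 and 368 to 655 in parts 5 and 6 (1.26 ± 0.30, piece fit 0.0733), Dhrs3 rose by 1.16, the binding protein gene Crabp2 by 0.58 and Rdh10 differed by 0.43. Cyp26a1, which degrades retinoic acid in the caudal zone, fell by 1.74, with overlapping signals of 45 to 449.5 in parts 3 and 4 and 16.7 to 79.4 in parts 5 and 6 (piece fit adjusted p = 0.0161).

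The orphan nuclear receptors Nr6a1, Nr2f1 and Nr2f2 all rose in the piece fit, 3 of 4 tested. Nr6a1, known for its part in trunk length, was 105 to 255 in parts 3 and 4 and 368 to 518 in parts 5 and 6 (1.43 ± 0.27, piece fit adjusted p = 0.00839). Nr2f1 had signals of 0.217 and 0.978 in part 3, 2.53 and 1.25 in part 4, 2.1 and 18.7 in part 5, and 130.2 and 171 in part 6. Only the part 6 arrays and replicate 2 of part 5 were clearly above the rest, so the sides overlapped. Of 7 Hox cofactors, TALE homeodomain proteins that bind DNA with Hox proteins, 2 rose and 0 fell in the piece fit, with a median of 0.91. Meis1 had signals of 62.8 and 95.3 in part 3, 162 and 145 in part 4, 286 and 379 in part 5, and 452 and 541 in part 6, a difference of 1.84 ± 0.31 (adjusted p = 0.0598, piece fit 0.00258). Pknox2 rose by 0.91, but a second probe set with a mean signal of 12.1 gave -0.13. Meis2 was 395 to 1178 in parts 3 and 4 and 1415 to 2692 in parts 5 and 6, separate but not passing (piece fit adjusted p = 0.134).

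Hox genes of high group number were lower in parts 5 and 6. The median difference was -0.07 for 13 tested genes of groups 1 to 5, -0.53 for 9 of groups 6 to 9 and -2.18 for 6 of groups 10 to 13, and the difference between these classes was not tested. In the piece fit 2, 1 and 6 of them fell and 0 rose in any of the 3 classes (2.59% of all genes were called). Without overlap 4, 2 and 5 were lower (8.07% of all genes did not overlap). Hoxd11 had signals of 60.5 and 39.8 in part 3, 23.1 and 13.9 in part 4, 1.31 and 6.35 in part 5, and 0.29 and 3.83 in part 6, low in parts 5 and 6 (-2.31 ± 0.42, adjusted p = 0.0709, piece fit 0.0055). Hoxc10, the brightest of its class, had signals of 1112 and 1132 in part 3, 846 and 972 in part 4, 634 and 571 in part 5, and 425 and 346 in part 6 (-1.06 ± 0.21, piece fit 0.0217). Hoxd10 was 369 to 788 in parts 3 and 4 and 17.4 to 296 in parts 5 and 6 (-2.64 ± 0.68, piece fit 0.000947), and Hoxa11 was 72.1 to 398 in parts 3 and 4 and 9.32 to 73.3 in parts 5 and 6, overlapping by the replicate 2 array of part 4 (-2.88 ± 0.57, piece fit 0.00578). Hoxd13 was uneven between embryos, with differences of -2.99 and -1.13, and its dimmer probe set gave 0.31. Of groups 6 to 9, Hoxc8 fell by 0.57, with signals of 1417 to 1674 in parts 3 and 4 and 928 to 1219.9 in parts 5 and 6 (piece fit adjusted p = 0.0219). Of groups 1 to 5, Hoxa5 fell by 0.99, with signals of 528 to 647 in parts 3 and 4 and 245 to 426 in parts 5 and 6 (piece fit 0.00404) and Hoxd1 by 0.77 (piece fit 0.0085).

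Many caudal progenitor genes were lower. Of 18 tested, 10 fell and 0 rose in the piece fit (2.59% of all genes were called). Without overlap 9 were lower and 1 higher (8.07% of all genes), and the median was -1.06. Fgf17, an FGF ligand of the caudal end, had signals of 316 and 293 in part 3, 94 and 129 in part 4, 24.4 and 26.9 in part 5, and 15.8 and 6.66 in part 6. It decreased with each part in both embryos (-3.15 ± 0.48, adjusted p = 0.0538, piece fit 0.000529). Cdx2, which activates caudal Hox genes, had signals of 884 and 879.8 in part 3, 659 and 858 in part 4, 420.1 and 415 in part 5, and 196 and 217 in part 6 (-1.46 ± 0.28, adjusted p = 0.0713, piece fit 0.00598). Evx1 was 93.9 to 251 in parts 3 and 4 and 26.2 to 67.9 in parts 5 and 6 (-1.89 ± 0.41, piece fit 0.000664), and Nkx1-2, a marker of neuromesodermal and early neural cells, was 2446 to 3187 in parts 3 and 4 and 938 to 1624 in parts 5 and 6 (-1.11 ± 0.21, piece fit 0.00598). Nkx1-2 kept a high signal in all 8 arrays. Cdx4, Greb1, Wnt5a and Fgf18 fell by 1.30, 1.00, 1.37 and 1.65 in the same fit. Fgf8, Fgf4, Wnt3a and Sp5 did not pass (piece fit adjusted p = 0.114, 0.978, 0.802 and 0.556). Fgf8 averaged 14.3 ± 8.996 in parts 3 and 4 and 2.8 ± 3.63 in parts 5 and 6 (SD, n = 4 arrays), a low signal on both sides.

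Several genes that FGF signalling induces were lower, and the receptor Fgfr3 was higher. Of 17 genes of this list 6 fell and 3 rose in the piece fit, with a median of -0.48. Dusp6, a phosphatase induced by FGF that dampens ERK, had signals of 348 and 489 in part 3, 212 and 225 in part 4, 90.6 and 91.3 in part 5, and 34.3 and 37.7 in part 6. Both embryos gave nearly the same values in parts 4 to 6 (-2.3 ± 0.40, adjusted p = 0.0651, piece fit 0.000131). The feedback inhibitor Spry1 was 455 to 542 in parts 3 and 4 and 140.3 to 295 in parts 5 and 6 (piece fit adjusted p = 0.015), and its relative Spry2 was 282 to 332 in parts 3 and 4 and 156 to 233 in parts 5 and 6 (piece fit 0.00958). Il17rd, another inhibitor, fell by 1.91, and the transcription factors Etv4 and Etv5 by 1.21 and 1.18. On the other side, Fgfr3 rose by 1.17, the ligand-binding protein gene Fgfbp3 by 1.82 and Flrt3 by 0.56. Fgfr2 was separate but did not pass (1.36 ± 0.30, piece fit 0.099), and Fgfr1 differed by -0.08 ± 0.18. Among 14 Wnt ligands 1 rose (Wnt1) and 2 fell (Wnt5a and Wnt5b). Wnt4 was 1.97 to 7.46 in parts 3 and 4 and 23.3 to 65 in parts 5 and 6, separate in these 8 arrays, but its arrays in parts 1 and 2 were uneven between embryos and it did not pass in the piece fit (adjusted p = 0.0885). Of 20 Wnt targets and feedback genes 0 passed in either direction in the piece fit, with 3 higher and 2 lower at an unadjusted p of 0.05 in the planned fit, and their median was -0.02.

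Genes of adhesion, axon guidance and the Eph family were called in both directions, beside 2.59% of all genes in the piece fit. Of 23 neural adhesion genes 2 rose and 1 fell in the piece fit, of 29 axon guidance genes 2 rose and 2 fell, of 16 Eph and ephrin genes 1 rose and 3 fell, and of 32 extracellular matrix genes 1 rose and 0 fell. Nrcam, an axonal adhesion molecule, had signals of 98.4 and 98.9 in part 3, 168 and 211 in part 4, 368 and 402 in part 5, and 541 and 469 in part 6 (1.66 ± 0.27, adjusted p = 0.0597, piece fit 0.00056). Robo2, a receptor for the repellent Slit, had signals of 3.73 and 4.92 in part 3, 9.69 and 12.7 in part 4, 44 and 64.8 in part 5, and 122 and 104 in part 6 and was among the 19 genes with the smallest adjusted p (2.82 ± 0.36, adjusted p = 0.0507, piece fit 0.000433). Both increased from part 3 to part 5 in both embryos. Sema6a was 116 to 275 in parts 3 and 4 and 27.5 to 94.8 in parts 5 and 6 and the netrin receptor Unc5b 149 to 337 in parts 3 and 4 and 54 to 166 in parts 5 and 6, and both fell in the piece fit (adjusted p = 0.00662 and 0.00503), with overlapping arrays for Unc5b. The semaphorin receptor Nrp1 rose by 1.4, the synaptic adhesion gene Lrrtm1 by 1.6 and the heparin-binding growth factor Ptn by 0.97, and Cntn2, named above, was the adhesion gene that fell. Dimmer probe sets of Lrrtm1 gave only 0.09 and 0.11. Among Eph receptors, Epha1, Epha2 and Epha5 fell by 1.18, 1.81 and 1.26, and Epha7 rose by 0.83. For Epha7 a second probe set with a mean signal of 27.2, against 40.3 for the one used, gave 0.04. Its 2 dimmest probe sets gave -0.34 and -0.004.

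No gene of the G1 and S phase list or of the G2 and mitosis list passed. Of 18 genes of G1 and S phase and 17 of G2 and mitosis, 0 passed in the piece fit, with medians of -0.02 in both lists. At an unadjusted p of 0.05 in the planned fit, 1 of the former and 0 of the latter were lower and 0 higher. A list of cell cycle exit genes also held D-type cyclins, which are not exit genes, and of its 16 tested members 2 rose and 1 fell. The one that fell was Cdkn1a, the inhibitor p21, and those that rose were Gadd45g and the cyclin gene Ccnd2. Ccnd2, a D-type cyclin, had signals of 1462 and 1304 in part 3, 1727 and 1885 in part 4, 2749 and 3212 in part 5, and 3844 and 4103 in part 6. The Ccnd2 arrays were separate (1.12 ± 0.17, adjusted p = 0.0538, piece fit 0.0043), and all 6 further probe sets had differences from 1.09 to 1.55. Of 17 glycolysis genes 1 rose (Ldhb, by 0.51) and 0 fell, of 15 hypoxia genes 0 rose and 1 fell, and of 22 oxidative phosphorylation and 15 cholesterol synthesis genes 0 passed; at an unadjusted p of 0.05 in the planned fit 1 of the former was lower and 0 of the latter were past it. The hypoxia gene that fell was Ndrg1, at 13.6 to 33.1 in parts 3 and 4 and 2.3 to 6.86 in parts 5 and 6 (piece fit 0.0409). Of 13 early embryonic genes 1 fell, Sall4, a zinc finger factor of pluripotent cells, at 2489 to 2982 in parts 3 and 4 and 1216 to 2538 in parts 5 and 6 with overlapping arrays (piece fit 0.0326). With 2.59% of all genes called in that fit, 1 call in a glycolysis, hypoxia or early embryonic list is not read as a result about the list.

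The 6 genes in each direction with the smallest p in the planned comparison, none of which passed, all shared the adjusted p of 0.0507. Those higher in parts 5 and 6 were Fam167a (1.5 ± 0.14), the serine protease Prss23 (2.14 ± 0.22), Hes5, Asb4 (1.92 ± 0.23), Tppp3 (0.87 ± 0.11) and Nkx6-1. Prss23 had signals of 59.4 and 75.9 in part 3, 76.3 and 104 in part 4, 205 and 407 in part 5, and 397 and 493 in part 6, and all its probe sets were higher in parts 5 and 6. All 6 rose in the piece fit as well. Those lower were Cdkn1a (-1.6 ± 0.17), the immediate early gene Ier3 (-0.75 ± 0.09), the carboxypeptidase-like Cpxm1 (-0.82 ± 0.10), Proser2 (-0.78 ± 0.10), the thioesterase Acot13 (-0.60 ± 0.08) and Fam83g (-0.79 ± 0.10). Cdkn1a had signals of 55.3 and 49.4 in part 3, 34 and 53.2 in part 4, 10.4 and 15.9 in part 5, and 14.1 and 10.8 in part 6. Acot13 had signals of 74.9 and 80.1 in part 3, 67.9 and 83.2 in part 4, 45.2 and 52.7 in part 5, and 47.3 and 50.4 in part 6. Every Cdkn1a array of parts 5 and 6 lay below every array of parts 3 and 4, and Acot13 gave similar values in all 4 arrays of each side. Cpxm1 and Proser2 did not pass in the piece fit (adjusted p = 0.21 and 0.126), and the other 4 fell in it. Cpxm1 was at 135 and 50.7 in part 1, which enters the spread of that fit.

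Hoxa11os, an RNA antisense to Hoxa11, and Pkdcc, a secreted kinase, were chosen after their values were seen. Both had signals below the offset of 4.43 on one side, so their log2 sizes and ranks depend on the offset. With an offset of 0.05 and of 1 times the median the difference was -4.51 and -2.48 for Hoxa11os and 4.11 and 2.72 for Pkdcc. Hoxa11os had signals of 195 and 124 in part 3, 196 and 36.3 in part 4, 29.5 and 1.43 in part 5, and 2.73 and 1.75 in part 6, so that replicate 1 of part 5 and replicate 2 of part 4 lay near each other while the rest were far apart (-3.64 ± 0.51, adjusted p = 0.0538, piece fit 0.00598). Whether the probe sets of Hoxa11 and its antisense RNA read each other's transcripts was not tested. Pkdcc had signals of 1.82 and 7.16 in part 3, 17.6 and 23.1 in part 4, 98.4 and 92 in part 5, and 330.4 and 279 in part 6 (3.6 ± 0.59, piece fit 0.000131). Foxd1, a forkhead factor chosen in the same way, had signals of 934 and 1092 in part 3, 517 and 542 in part 4, 157 and 167 in part 5, and 47.2 and 63.7 in part 6 (-2.89 ± 0.45, adjusted p = 0.0557, piece fit 6.37e-05). Its arrays were in the order of the parts in both embryos.

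Markers of neighbouring tissues were looked at because the pieces were freed by hand. Of 10 tested presomitic mesoderm markers 2 fell in the piece fit and 0 rose, Hes7 and Rspo3, while Tbx6 and Msgn1, which define that tissue, lay below the array medians on average. Members differed in both directions, with 3 higher and 3 lower at an unadjusted p of 0.05 in the planned fit. Those above 0 were Pcdh8, Lfng and Mesp2, at 1.43, 1.10 and 1.06, and they did not pass in the piece fit. Tbx6 averaged 11.9 ± 3.48 in parts 3 and 4 and 10.03 ± 3.21 in parts 5 and 6 (SD, n = 4 arrays). Msgn1 averaged 7.91 ± 6.996 in parts 3 and 4 and 3.72 ± 1.15 in parts 5 and 6. The summed signal of the list was 1043 to 1129 in parts 3 and 4 and 969 to 1317 in parts 5 and 6. Of 7 somite markers 1 rose (Met, at 21 to 35.6 in parts 3 and 4 and 48 to 74.8 in parts 5 and 6), and the sum was 275 to 457 and 504 to 812, of which Aldh1a2 and Met made the larger share. Meox1 averaged 9.15 ± 7.42 in parts 3 and 4 and 13 ± 9.03 in parts 5 and 6. Foxc2 averaged 0.832 ± 0.282 in parts 3 and 4 and 0.836 ± 0.377 in parts 5 and 6. Of 13 surface ectoderm markers 1 fell, Grhl3, with signals of 83.2 and 69.98 in part 3, 63.8 and 42.1 in part 4, 25.8 and 24.9 in part 5, and 27 and 11.8 in part 6 (-1.38 ± 0.22, adjusted p = 0.0585, piece fit 0.0162). The median of that list was -0.55 and its sum was 375 to 549 and 329 to 478. Of its 13 members 4 lay above 0, among them Tfap2c at 0.88, and 1 was higher and 2 lower without overlap. Epcam averaged 45.9 ± 11.5 in parts 3 and 4 and 19.96 ± 15.2 in parts 5 and 6, and Cdh1 averaged 8.68 ± 6.68 in parts 3 and 4 and 1.62 ± 0.946 in parts 5 and 6. Of 6 notochord, 6 endothelial, 9 blood, 2 macrophage, 4 endoderm, 4 lateral plate, 2 intermediate mesoderm and 5 brain markers 0 passed. Many members of these lists were left out by the filter on low signals and were not tested. On the array were 14 endothelial, 10 macrophage and 12 endoderm markers. At an unadjusted p of 0.05 in the planned fit 1 notochord marker was higher and 1 lower, 2 endothelial markers were lower, and 0 of the others were past it. The endothelial sum was 173 to 212 in parts 3 and 4 and 120 to 154 in parts 5 and 6. The blood sum was uneven between arrays, 1409 to 5651 and 119 to 6942, and within it the embryonic globin Hbb-y had signals of 943 and 4017 in part 3, 2084 and 3284 in part 4, 1135 and 4776 in part 5, and 56.5 and 4612 in part 6. The part of these markers in the differences above was not tested.

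The single steps between neighbouring pieces show where along parts 3 to 6 the signals differed. In the piece fit each step called 1 gene (0.00827%), with 505 (4.18%), 571 (4.72%) and 656 (5.43%) at an unadjusted p of 0.05 for part 4 against 3, 5 against 4 and 6 against 5. Hes5 rose between parts 4 and 5 by 2.9 ± 0.24 (adjusted p = 0.0156), after 1.09 between parts 3 and 4 and before 1.26 between parts 5 and 6, neither of which passed. Selplg, a ligand of selectins, rose between parts 3 and 4 by 1.68 ± 0.15 (adjusted p = 0.0321), with signals of 3.59 and 3.94 in part 3, 21.2 and 22.6 in part 4, 9.2 and 12.2 in part 5, and 4.48 and 3.88 in part 6. Its signals were highest in part 4, so it does not separate the 2 sides. Plcd4, a phospholipase C, rose between parts 5 and 6 by 1.99 ± 0.18 (adjusted p = 0.033), from signals of at most 3.09 in the other parts shown here to 24.9 and 18.9 in part 6. The lower signals lie below the offset of 4.43, so this size depends on it, and it was 2.93 and 0.99 with an offset of 0.05 and of 1 times the median. Another probe set, which represents Plcd4 without the filter on low signals, had a step of -0.18. Without the filter on low signals each step called 0 genes. With 1 array left out, the step from part 3 to 4 called 0 genes whichever of the 12 was left out, and the step from part 4 to 5 called 0 without any 1 array of parts 3, 4 or 5. The step from part 5 to 6 called 0 genes without 1 array, except that it called 1 without either array of part 1 or without replicate 2 of part 5.

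The steps of other genes are given as values. Nkx6-1 and Robo2 had their largest steps between parts 4 and 5 (1.95 and 1.9), as had Cdkn1a (-1.44, against -0.27 and -0.05). Nr2f1 had its largest step between parts 5 and 6 (3.64, adjusted p = 0.0639), and so had Zic1 (2.26). Rarb and Dusp6 were spread over the 3 steps, Rarb at 1.57, 1.14 and 1.26 and Dusp6 at -0.90, -1.23 and -1.24. None of these single steps passed, and differences between steps of a gene were not tested.

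**Figure D4:**
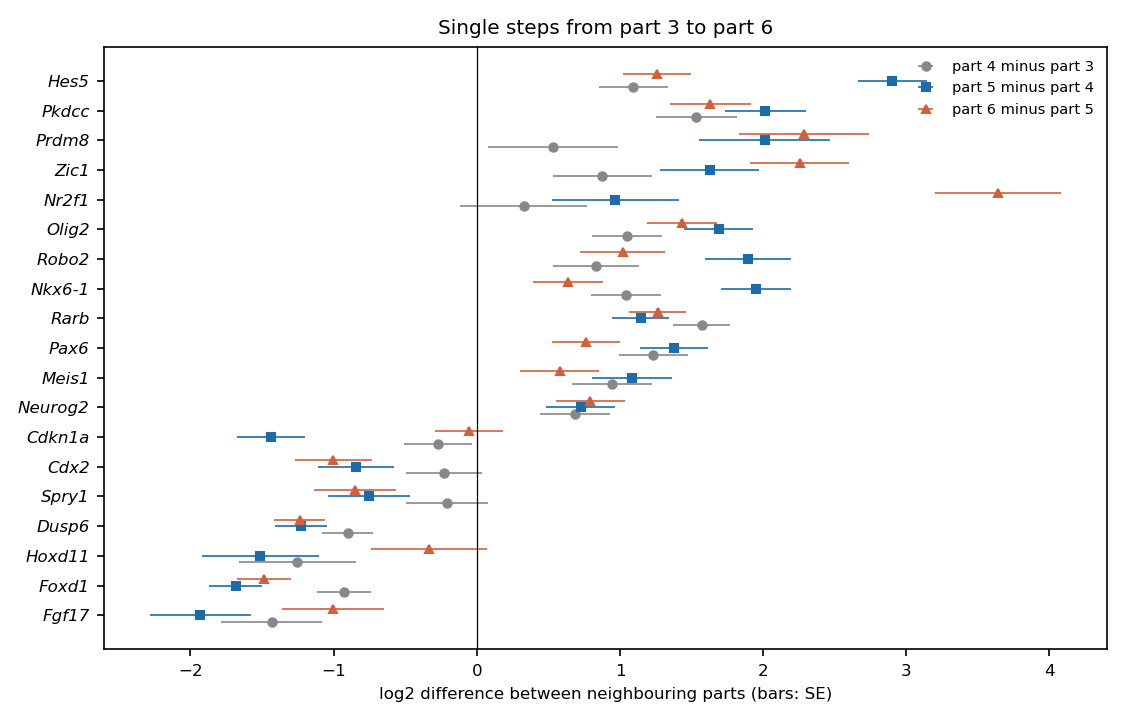
Log2 difference between neighbouring parts (x axis) for 19 genes (y axis), as part 4 minus part 3 (grey circles), part 5 minus part 4 (blue squares) and part 6 minus part 5 (orange triangles), with bars for the standard error from the fit of 12 arrays by piece. Hes5 stands at 2.90 for part 5 minus part 4, the only step in the plot that passed an adjusted p of 0.05.

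The same pieces 3 and 4 also serve as the later side of a comparison with parts 1 and 2, so the comparisons share arrays and their values are only set side by side. For Fgf17 parts 3 and 4 minus parts 1 and 2 gave -1.33 ± 0.43 (adjusted p = 0.142, limma fit of 12 arrays by pair) beside -3.15 for the later pair, and for Hes7 -3.41 ± 0.37 (0.0014) beside -1.88. Cdkn1a gave -1.42 ± 0.16 (0.00194) beside -1.6. Hes5 gave -0.24 ± 0.51 (0.883) beside 4.08, Irx3 3.81 ± 0.53 (0.00457) beside 0.95, and Nkx1-2 0.38 ± 0.27 (0.554) beside -1.11. Whether the later difference was unlike the earlier one, in either direction, was tested by the contrast of both in the 12 arrays. It called 1 gene (0.00827%), with 878 (7.26%) at an unadjusted p of 0.05. The gene called was Klb, the co-receptor of endocrine FGFs, with signals of 7.64 and 5.51 in part 1, 10.7 and 11.6 in part 2, 54 and 48.2 in part 3, 55.8 and 60.9 in part 4, 43.5 and 43.1 in part 5, and 43.1 and 42.5 in part 6. Klb was low in parts 1 and 2 and highest in parts 3 and 4, and its arrays in parts 5 and 6 all lay below those of parts 3 and 4 (-0.31 ± 0.09, unadjusted p = 0.0099). Its earlier difference was 2.18 ± 0.15, so its later one was the smaller in size, and the contrast was -2.49 ± 0.26 (adjusted p = 0.0093). This contrast called 0 genes without replicate 1 of part 3 or of part 4, 2 without replicate 2 of part 4 or replicate 1 of part 5, and 15 without replicate 2 of part 2.

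Whether the difference itself depended on the embryo was tested by an interaction term in the 8 arrays, for which limma called 0 genes (0% called), with 429 at an unadjusted p of 0.05 (3.55%). The smallest p belonged to Trem2, a receptor of macrophages, Acox3, a peroxisomal oxidase, and Zfand4. Trem2 had signals of 4.52 and 15.6 in part 3, 6.43 and 22.1 in part 4, 16 and 4.04 in part 5, and 15 and 2.55 in part 6, higher in parts 5 and 6 of replicate 1 and lower in those of replicate 2. As replicate 2 minus replicate 1, the interaction was -2.6 ± 0.27 for Trem2 (unadjusted p = 3.57e-05, limma adjusted p = 0.285), 3.15 ± 0.34 for Acox3 and -1.37 ± 0.19 for Zfand4, with adjusted p of 0.285 and 0.733.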

How the data were processed

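Gene expression was measured on 12 Affymetrix arrays, 1 for each of 6 pieces in each of 2 embryos. Per the submitters' processing notes the authors computed the intensity values in MAS5; the sources used here give neither its version nor its settings. RNA was amplified in a double round before labelling, per the labels' protocols, and no detection calls were used. The trimmed mean of the deposited intensities, without the top and bottom 2%, was 100 on every array. Of 45101 probe sets 64 controls were left out, and 34958 had 1 gene symbol in GEO's platform annotation (932 several, 9211 none); 34754 were matched to the RefSeq gene table by Entrez identifier. Probe sets above their array's median in at least 2 of 12 arrays were kept (21679), and each of 12089 genes was represented by its brightest. Of 135 genes examined for the text 80 had several probe sets, and in 65 of these all pointed the same way.

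Before taking log2 an offset of 4.43 was added to each signal, 0.25 times the overall median of 17.7, so log2 differences understate the change of dim genes. Fits used limma 3.58.1 in R 4.3.3 with Benjamini-Hochberg adjustment over all genes at 0.05. The main fit held 8 arrays with the replicate number as a block (5 residual degrees of freedom). Arrays with the same number deviated together in all 15 pairs of pieces (r from 0.183 to 0.335 across genes), and the design text names 2 embryos, so the number was used as the embryo. Neighbouring pieces of an embryo are not independent animals, and the number of arrays limits the precision. The members, the 47 gene lists and the tests were chosen with earlier results of these data known. Genes planned for naming were the 14 largest called per direction, or where none was called the 6 smallest p per direction. Added were up to 5 per list by smallest p, the largest called in each step and in the later-minus-earlier contrast, and 3 for the interaction. Clone and predicted genes were passed over. The text departs from this plan: it counts called list members in the piece fit and not in the planned fit. It also names further list members, many called in the piece fit, and leaves some planned ones out. Among those left out, Fabp7 (1.02), Neurod1 (1.00) and Tfap2b (1.92) did not pass in the piece fit (adjusted p = 0.407, 0.109 and 0.129), and Hoxa10 (-1.33) fell in it (0.0219). Alternatives were other offsets, filters, normalization, probe set summaries, variance priors, array sets and left-out arrays; an adjusted p of 0.10 was added after seeing the data. A search for retinoic acid response elements is not reported, because its spelling was altered after a window had been read. The steps were tested on simulated data.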

Additional observations from a re-analysis of the deposited data

Results flagged for a closer look

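Within the 4 arrays of each side, 1 array stood far from the other 3 in 9 of 270 sets of 4 (135 genes, 2 sides), which is 3.333%. For 4 values from a single normal distribution the cutoff used gives about 1 in 20 by chance. The sets here join 2 pieces of 2 embryos, and the genes were chosen mainly by small p, so that rate need not apply to them. In parts 3 and 4, Cdx2 was at 659 in replicate 1 of part 4 against 858 to 884 in the others, and Hoxa5 at 528 in replicate 2 of part 4 against 638 to 647. In part 3, replicate 1 stood apart for Stmn2 (39.7 against 22.8 to 24.2) and for Bmper (8.54 against 18.9 to 20.7), and replicate 2 for Epha5 (225 against 118 to 126) and for Sall4 (2489 against 2907 to 2982). In parts 5 and 6, replicate 2 of part 6 was low for Dhrs3 (12.1 against 20.4 to 22.1) and Grhl3 (11.8 against 24.9 to 27.0). Hoxa11os was at 29.5 in replicate 1 of part 5 against 1.43 to 2.73 in the others.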

How the results depend on the processing

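The count of genes for parts 5 and 6 against parts 3 and 4, 0 in the planned fit, became 65 without the replicate block, 313 in the fit of 12 arrays by piece, 91 in 12 arrays by pooled pairs, 290 with an offset of 1 times the median, 295 with a filter at the 75th percentile, 155 with the filter in 4 of the 8 arrays, 22 with the mean of probe sets, 374 with a variance trend, and 327 at an adjusted p of 0.10, a threshold added after seeing the data. It was 101 without both arrays of part 4 and 138 without both of part 5. It remained 0 with an offset of 0.05 of the median, without a filter, with quantile normalization and without both arrays of part 3 or of part 6, and was 0 to 20 with 1 array left out. The cause was not tested. The counts for the steps 4 against 3, 5 against 4 and 6 against 5, each 1, became 3, 10 and 11 with the larger offset, 18, 17 and 17 with the filter at the 75th percentile and 0 in each step without a filter, and the last was 2 with the smaller offset; with 1 array left out they were 0 to 0, 0 to 2 and 0 to 1. Without a filter another probe set represents Plcd4, and its step from part 5 to 6 was -0.18. The count for later minus earlier, 1, was 0 with the filter at the 75th percentile and 0 to 15 with 1 array left out, the 15 without replicate 2 of part 2. The interaction gave 0 under every alternative run.

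Of 2891 values for 128 genes under these alternatives 0 changed direction and 553 passed 0.05, 84 of the genes in the piece fit, 29 without the block and 74 with the variance trend. The genes were chosen mainly by small p in these same arrays, so an unchanged direction was likely beforehand and is no independent check. With 1 array left out 21 of 1024 passed. Of 323 list medians 76 moved. Background was not estimated, so whether signals near or below the offset stand above it is not known. The log2 size depends on the offset for every gene with signals under 4.43. Among them are Olig2, Olig1, Nkx6-1, Zic1, Prdm8, Nr2f1, Wnt4, Rarb, Asb4, Foxd3, Robo2, Pkdcc, Hoxd11, Hoxa11os, Mnx1 and Plcd4. With an offset of 0.05 of the median Hoxa11os (-4.51) had a larger size than Hes5 (4.17).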
